A study of Homo sapiens with 4 samples.

Results

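The untreated state of PC3, an established human prostate cancer line labelled as prostatic adenocarcinoma, was read from the libraries of its vehicle-treated cells, which make up 1 of the 4 samples of the series and 3 of its 12 expression columns. The columns were chosen by their names, and the 43622 genes were then ranked by their mean level without any contrast between treatments. The study asked how PC3 cells respond to MLN4924, an inhibitor of NEDD8 conjugation, and how far that response needs the tumour suppressor p14ARF, using cells with and without a short hairpin RNA against p14ARF. The cells described here, called Ctrl, were labelled wt, grew in medium with 10% fetal bovine serum and received DMSO for 3 days. No control hairpin was named for them. GEO lists the condition as 1 sample and the table holds 3 libraries of it. Since no source says that the libraries came from separate cultures, their SD (n = 3 throughout) measures a spread that may be technical.

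Prostate epithelium is made of luminal cells, which respond to androgen and make secreted proteins such as prostate-specific antigen, of basal cells, and of rare neuroendocrine cells. PC3 came from a bone metastasis and grows without androgen. The line is known to have lost the alpha-catenin gene CTNNA1 and to keep RB1 and CDKN2A, the locus that encodes p14ARF.

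Levels are in TPM, a share of all transcripts that is corrected for transcript length, so genes can be compared with each other, but that carries no read depth. A gene was called detected at a mean of at least 1 TPM. By this measure 14325 genes were detected, among them 12162 of 19136 protein-coding genes (63.6%), and the median over all protein-coding genes was 7.32 TPM. In all 3 libraries 21176 genes were listed at 0. An exact 0 can be a failed estimate. The 80 cytosolic ribosomal protein genes, which every cell uses, were all above 0 and lay between 52.0 and 4603 TPM. Genes this abundant cannot show whether the 0 of another gene is true. The libraries correlated with Pearson's r between 0.972 and 0.973 across 19073 genes on the log2(TPM + 0.1) scale, as a description across genes that are not independent. The median coefficient of variation was 49.3% for genes from 0.1 to 1 TPM, 11.6% from 1 to 10 TPM and 5.27% from 1000 TPM up, so levels under 1 TPM are read here as low and not ordered.

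**Figure D1:**
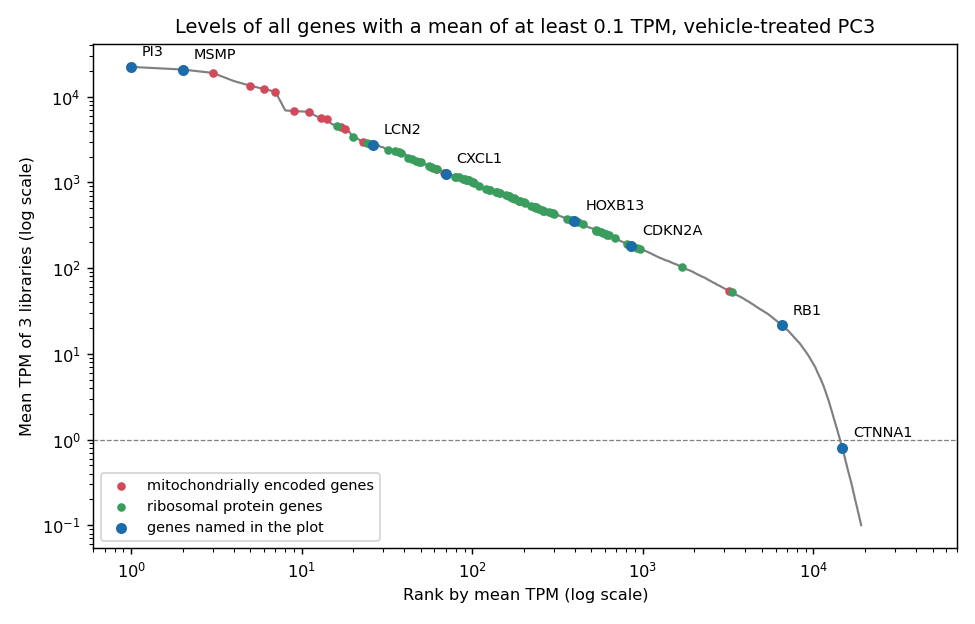
Mean TPM of the 3 vehicle-treated libraries (vertical, log scale) against rank (horizontal, log scale) for genes that averaged 0.1 TPM or more; red and green points are mitochondrially encoded and ribosomal protein genes, and blue points are genes named in the plot. PI3 and MSMP stand above every mitochondrial and ribosomal gene, HOXB13 and CDKN2A lie on the straight part of the curve at ranks 397 and 853, and CTNNA1 lies under the dashed line at 1 TPM.

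The 2 most abundant transcripts of PC3 by mean level encoded small secreted proteins (ranks 6 for PI3 and 5 for MSMP when weighted by transcript length). PI3 encodes elafin, an epithelial inhibitor of neutrophil elastase and proteinase 3. It stood at 22857 TPM in replicate 1, 20330.2 in replicate 2 and 23717 in replicate 3, a mean of 22301 ± 1760.4. MSMP encodes a cysteine-rich microprotein known from the medium of this very line, and it stood at 21498, 21077 and 19763 TPM, a mean of 20779 ± 905. The order of the 2 genes was not the same in every library, since PI3 was above MSMP in replicates 1 and 3 and below it in replicate 2. The mitochondrial MT-CO1 was above MSMP in replicate 3 and below it in the other libraries. PI3 and MSMP were above the housekeeping genes in every library, with the translation factor EEF1A1 at 6929 ± 135, the glycolytic enzyme GAPDH at 6013 ± 466 and the actin gene ACTB at 4802 ± 274 TPM. Together PI3 and MSMP took 4.31% ± 0.15 of all TPM.

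PI3 (ENSG00000124102.5) lies on the plus strand of GRCh38 at chr20:45174902-45176544, within a cluster of protease inhibitor and semen protein genes, and it was 27.9-fold its highest neighbour. That neighbour was SLPI, a related inhibitor of elastase and cathepsin G, at 809, 743 and 850 TPM. The semenogelin genes between them, which encode the main proteins of the semen coagulum, were at or near 0, with SEMG1 at 0.0940 TPM in replicate 1 and 0 in the other libraries and SEMG2 listed at 0 in all 3. WFDC5 and WFDC12 of the same cluster were below 1 TPM as means. MSMP (ENSG00000215183.5) lies on the minus strand at chr9:35752990-35756613. It overlaps RGP1 on the opposite strand, which was at 56.4 ± 4.58 TPM, and since the strandedness of the libraries is not given in the sources used here, reads of the 2 genes could not be told apart. MSMP was 167-fold its highest neighbour, GBA2, at 124 ± 7.39 TPM.

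Among the 25 highest genes were 11 mitochondrially encoded genes, 4 ribosomal protein genes (RPL41, RPS2, RPL13A and RPS24) and 10 others. The highest mitochondrial transcripts encoded subunits of cytochrome c oxidase and of complex I. MT-CO1 was at 15938, 20057 and 20959 TPM, followed by MT-CO2 (mean 13432 TPM), MT-ND4 (12324), MT-CO3 (11459), MT-ND2 (6794), MT-ND4L (6678), MT-CYB (5603), MT-ATP6 (5462), MT-ND3 (4453), MT-ND1 (4178) and the ribosomal RNA MT-RNR2 (2953). The other nuclear genes of this set were FTH1 (15242 ± 1155), the heavy chain of the iron store ferritin, the actin-binding thymosins TMSB10 (6724 ± 1066) and TMSB4X (3892 ± 528), the calcium-binding S100A6 (3289 ± 97.1) and the chaperone HSP90AB1 (3096 ± 72.3), besides PI3, MSMP, EEF1A1, GAPDH and ACTB. Below them, LCN2, IL1B, the chromatin protein HMGA1 (2743 ± 326), ACTG1 (2597 ± 109) and the ferritin light chain FTL (2578 ± 83.9) completed the 15 highest protein-coding genes that were neither mitochondrial nor ribosomal. Of the 24 pairs of adjacent genes among the 25 highest, only 4 kept their order in every library (MT-CO2 over MT-ND4, MT-CO3 over EEF1A1, S100A6 over HSP90AB1 and RPL13A over RPS24), so the other 20 pairs of neighbours in this ranking were not distinguishable. Ribosomal protein genes, FTH1, EEF1A1 and GAPDH have many near-identical pseudogenes, so their levels depend on how the authors assigned shared reads.

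The 10 highest genes took 13.5% ± 0.79 of all TPM, the 100 highest 31.7% ± 1.41 and the 1000 highest 61.8% ± 1.12. Mitochondrially encoded genes took 7.85%, 10.9% and 9.96% in replicates 1 to 3, and ribosomal protein genes took 7.11%, 7.99% and 7.47%. Replicate 1 was the lowest for both groups. Long non-coding RNAs took 0.827% ± 0.0058 in sum, and the highest of them was NORAD, a cytoplasmic RNA that binds Pumilio proteins, at 624, 585 and 585 TPM. In 101 genes the mean was at least 1000 TPM, and in 7 it was at least 10000 TPM.

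The 5 genes that varied most among the 500 highest had transcripts of 207 to 561 bases. MT-ATP8 was at 842, 2028 and 1020 TPM, RPS21 at 858, 1444 and 986, MT-ND3 at 3644, 5755 and 3960, the translation-associated TMA7 at 270, 378 and 252, and MT-ND4L at 5241, 8214 and 6578. All 5, and each of the 10 most variable genes, were highest in replicate 2, and the longest transcript among the 10 was that of MT-ND4 with 1378 bases. MT-ATP8 and MT-ND4L overlap MT-ATP6 and MT-ND4 on the mitochondrial genome. Over genes of at least 10 TPM, transcripts under 500 bases stood at a median of 0.12 above the mean of the other libraries in replicate 2 and 0.11 below it in replicate 1 on the log2 scale, while those of 4000 bases or more stood 0.092 below and 0.099 above it. The part of transcript length in the spread of single genes was not tested. The median coefficient of variation of the 500 genes was 5.08%, and 11 of them exceeded 20%.

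Genes of luminal prostate identity ranged in mean level from 0 to 355 TPM. Of 26 genes in the list, 14 were detected (53.8%), against 63.6% of all protein-coding genes. The list's median was 4.71 TPM, below the 7.32 TPM of all protein-coding genes. KLK3, which encodes prostate-specific antigen, was listed at 0 in every library, as were FOLH1, which encodes prostate-specific membrane antigen, HPN and PCA3. Among androgen-responsive genes, TMPRSS2 was under 1 TPM, at 0.332, 0.196 and 0.174, and KLK2 at 0.0244, 0.0234 and 0.0238. Other androgen-responsive or prostate-enriched genes were detected at middle levels, with SLC45A3 at 14.3 ± 1.61, PMEPA1 at 10.3 ± 0.94, STEAP2 at 10.3 ± 1.06, FKBP5 at 6.21 ± 0.55 and the acid phosphatase gene ACP3 at 3.21 ± 0.26 TPM. AMACR, a racemase gene raised in many prostate cancers, was at 20.2 ± 0.57 TPM.

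Other prostate genes of the list were abundant. HOXB13, the homeobox gene of posterior and prostate identity, was at 389, 337 and 339 TPM, rank 397 of all genes. The luminal keratin KRT18 was at 251, 219 and 234 TPM and its partner KRT8 at 97.3, 84.1 and 90.5. Their ratio was 2.59 ± 0.011 and nearly the same in the 3 libraries. NDRG1, a stress and differentiation gene, was at 271, 193 and 182 TPM and stood apart in replicate 1. The surface antigen STEAP1 was at 174 ± 14.3 and the receptor coactivator NCOA4 at 168 ± 7.66 TPM. The pioneer factor FOXA1, which opens chromatin in luminal cells, was at 88.5, 75.5 and 72.9 TPM, and the ETS factor SPDEF at 78.0 ± 8.32. Checked against its markers, the label of prostatic adenocarcinoma was met by HOXB13, FOXA1, SPDEF, KRT8 and KRT18 and not by KLK3 or KLK2.

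**Figure D2:**
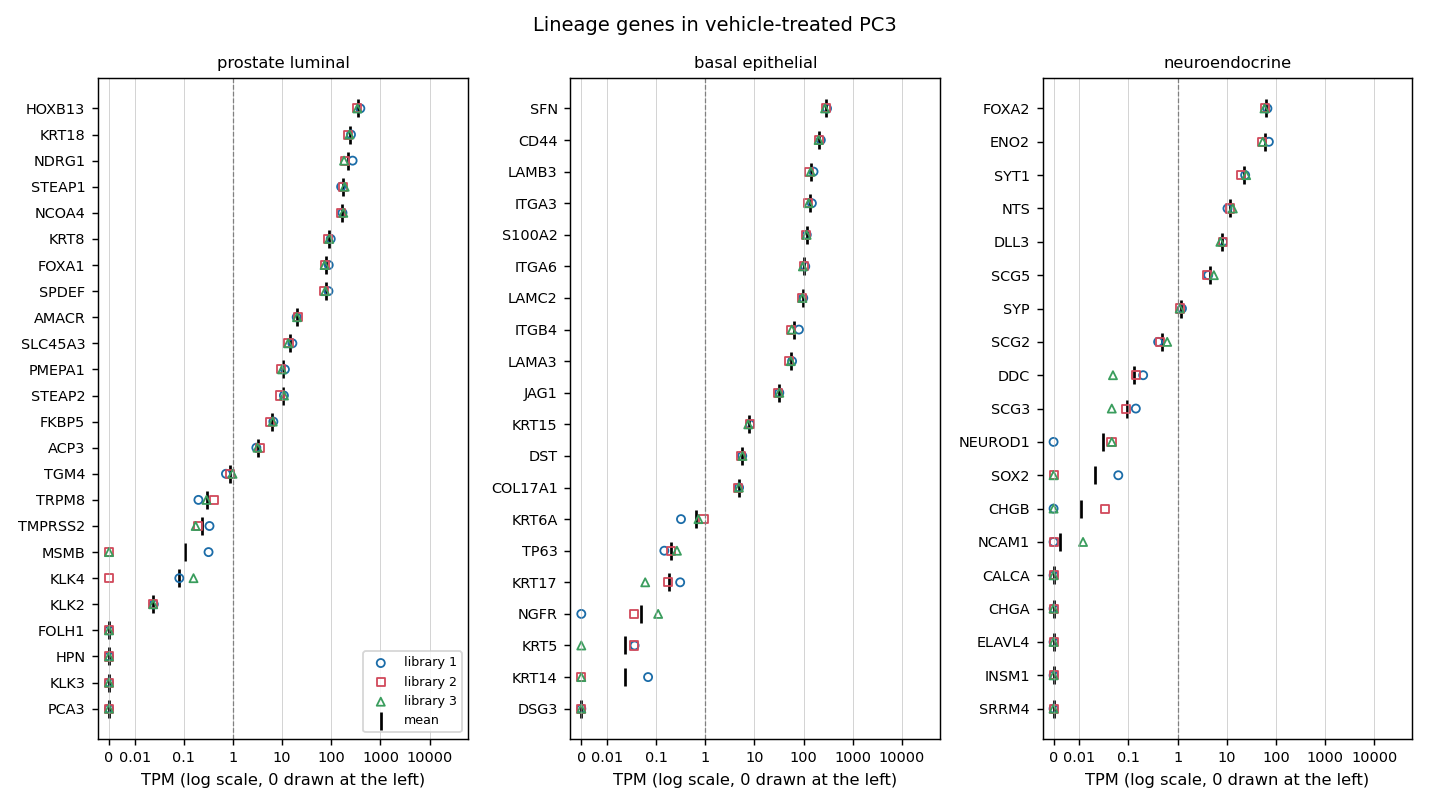
Levels of the reported members of the luminal, basal and neuroendocrine lists in TPM (horizontal, log scale with 0 drawn at the left edge), one gene per line; symbols are the 3 libraries, black ticks are means and the dashed line marks 1 TPM. HOXB13, SFN and FOXA2 lead the 3 lists, while KLK3, DSG3, CHGA and INSM1 lie at 0 in every library.

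The basal list held 13 detected genes of 20 (65.0%, median 19.6 TPM), close to the 63.6% of all protein-coding genes. Its defining members were absent or low. TP63, the regulator of basal cells, was at 0.147, 0.201 and 0.265 TPM. The basal keratins KRT5 and KRT14 had means of 0.024 and 0.023 TPM, and KRT14 was above 0 in replicate 1 only. The 5 most abundant members were the cell cycle inhibitor SFN at 299, 280 and 273 TPM, the hyaluronan receptor CD44 at 224, 205 and 202, the laminin chain LAMB3 at 159, 130 and 140, the integrin ITGA3 at 147, 122 and 126, and the calcium-binding S100A2 at 116, 113 and 115. These 5 kept their order in every library.

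The neuroendocrine list held 7 detected genes of 20 (35.0%, median 0.0614 TPM), against 63.6% of all protein-coding genes. CHGA and INSM1 were listed at 0 and SYP, the synaptophysin gene, was at 1.23, 1.12 and 1.11 TPM. FOXA2, a forkhead factor of endoderm, was at 67.2, 60.6 and 58.6 TPM, ENO2, the neuron-specific enolase gene, at 71.9, 51.7 and 53.8, and the vesicle calcium sensor SYT1 at 22.8 ± 2.59. NTS, which encodes neurotensin, was at 11.7 ± 1.48 and the Notch ligand gene DLL3 at 8.14 ± 0.62 TPM.

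Epithelial and mesenchymal genes were present side by side. Of all protein-coding genes, 63.6% were detected. Of the 20 epithelial genes 16 were detected (80.0%, median 23.3 TPM), led by the tight junction gene CLDN4 at 798, 785 and 727 TPM and the keratin KRT19 at 589, 536 and 561, then CLDN3 (82.1 ± 8.22), JUP (59.6 ± 7.59) and CLDN1 (57.9 ± 2.23). Of the 20 mesenchymal genes 15 were detected (75%, median 16.1 TPM), led by the galectin LGALS1 at 1802, 1790.4 and 1902 TPM and the intermediate filament VIM at 844, 775 and 825, then S100A4 (217 ± 9.31), CDH2 (114 ± 3.63) and CAV1 (106 ± 4.87). The epithelial cadherin CDH1 was at 18.7, 14.8 and 15.3 TPM and the neural cadherin CDH2 at 118, 114 and 111, so that CDH2 was 7.09 ± 0.69 times CDH1. VIM was 1.45 ± 0.020 times KRT19. EPCAM, a surface marker of epithelium, was at 48.6 ± 4.06 TPM. The epithelial regulators GRHL2 and OVOL1 and the desmosomal DSP, at 0.0908 ± 0.027, were all under 1 TPM, and the mesenchymal TWIST2 and THY1 were listed at 0.

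Markers of other cell types were low, with a few exceptions, and each list had a smaller detected share than the 63.6% of all protein-coding genes. The libraries came from a cultured line, and bulk RNA cannot tell fewer cells with a transcript from less RNA per cell. Of 10 fibroblast and smooth muscle markers 4 were detected, with PDGFRA at 8.66, COL1A1 at 7.27, COL1A2 at 6.73 and ACTA2 at 3.09 TPM, COL3A1 at 0.525 and PDGFRB at 0.376 TPM, DCN at 0.00800 and MYH11 at 0, and the summed level was 0.00252 to 0.00293% of all TPM. Of 8 endothelial markers 2 were detected. KDR, the VEGF receptor gene, was at 111, 104 and 102 TPM and PECAM1 at 12.4, 11.6 and 10.9, while TEK was at 0.635 TPM, CDH5 at 0.0936 and VWF at 0.010, CLDN5 and EMCN were listed at 0, and the summed share was 0.0114 to 0.0124%. Of 12 leukocyte and erythroid markers 4 were detected, the lysosomal CD68 at 230, 170 and 161 TPM, the lysozyme gene LYZ at 35.9, 44.6 and 50.2, and the globins HBA1 and HBB, which were at 0 in replicate 1. HBA1 was at 2.69 and 1.46 TPM and HBB at 1.65 and 1.42 in replicates 2 and 3, HBA1 having a near-identical copy in HBA2, and without replicate 2 the list had 2 detected members. The defining markers CD3E, CD3D and MS4A1 were listed at 0 and PTPRC, the common leukocyte antigen gene, was above 0 in replicate 3 only (0.0726 TPM). The list's summed share was 0.0215 to 0.0267%.

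Of 42 tumour suppressor genes 40 were detected (95.2%, median 16.7 TPM), against 63.6% of all protein-coding genes. The highest were cell cycle inhibitors. CDKN2A was at 190, 183 and 177 TPM, rank 853 (3157 when weighted by transcript length), in values that do not separate the p14ARF transcript from that of the CDK4 and CDK6 inhibitor p16INK4a. CDKN2B, which encodes the related p15INK4b, was at 148, 134 and 142 TPM, and CDKN1A, which encodes p21, at 124, 110 and 106. These 3 kept their order in every library. The ubiquitin hydrolase gene USP10 (109 ± 12.2) and the NRF2 adaptor KEAP1 (74.99 ± 3.03) came next. RB1, the retinoblastoma gene, was at 21.5, 19.8 and 23 TPM, and CDKN2A was 8.59 ± 0.80 times its level.

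The suppressor gene known as lost in PC3 was near the bottom of the list. CTNNA1 was at 0.796, 0.779 and 0.809 TPM. CTNNA1 and ZBTB16, a transcriptional repressor gene listed at 0, were the 2 undetected members.

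Around CTNNA1 (chr5:138610967-138935034, plus strand) 7 of the 10 flanking genes with a value were detected. HSPA9, the mitochondrial chaperone next to it, was at 311, 306 and 311 TPM and the translation release factor ETF1 at 122, 118 and 123. KDM3B was at 28.5 and FAM53C at 24.3 TPM as means, with REEP2 at 1.53 and the immediate early gene EGR1 at 0.0816. On the other side the chaperone cofactor SIL1 was at 5.88, 4.51 and 5.72 TPM and PAIP2 at 86.6, 96.7 and 97.5. LRRTM2, which lies inside CTNNA1 on the other strand, and SLC23A1 were listed at 0. CTNNA1 was below HSPA9 in every library.

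Around CDKN2A (chr9:21967752-21995301, minus strand) both nearest neighbours were expressed. MTAP, the methylthioadenosine phosphorylase gene, was at 25.2, 24.6 and 24.1 TPM, and CDKN2A was 1.30-fold CDKN2B in the ratio of means. A non-coding RNA gene runs antisense to CDKN2B and the start of CDKN2A, and without the strandedness its reads could not be told apart from theirs. Farther out, ELAVL2 (21.5), TUSC1 (15.7), CAAP1 (26.7) and DMRTA1 (5.50) were detected, IZUMO3 was listed at 0, IFNE was at 1.24 TPM, and the interferon genes IFNA1, IFNA2, IFNA8 and IFNA13 were listed at 0.

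Secreted inflammatory genes included some of the highest transcripts of the cells. Many of these genes are known targets of NF-kB, a family of transcription factors that interleukin-1 and tumour necrosis factor activate. Of 35 interleukins, colony-stimulating factors and related cytokines, 22 were detected (62.9%, median 2.53 TPM), close to the share of all protein-coding genes, and 3 exceeded 100 TPM. IL1B, the gene of interleukin-1β on chromosome 2 (chr2:112829751-112836816, minus strand), was at 2878, 2603 and 2822 TPM, rank 27. It was 244.6 ± 22.5 times its relative IL1A, which lies beside it at 11.3 ± 0.49 TPM. IL1RN, which encodes the receptor antagonist, was low, at 0.672, 0.781 and 0.840 TPM, so no fold over it is given. LIF, the leukaemia inhibitory factor gene, was at 387, 326 and 345 TPM, and CSF3, the granulocyte colony-stimulating factor gene, at 214, 207 and 192. IL18, another member of the interleukin-1 family, was at 65.2, 70.7 and 74.7 and CSF2, the granulocyte-macrophage factor gene, at 20.8, 27.0 and 35.9. CSF2 was the least steady of these 5, yet IL1B, LIF, CSF3, IL18 and CSF2 came in the same order in every library. IL6 (4.44 ± 0.28) and TNF (2.12 ± 0.39) were low, and IL10, OSM, IL27, IL19 and IL17C were listed at 0.

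Of 27 chemokine genes 15 were detected (55.6%, median 1.64 TPM), against 63.6% of all protein-coding genes. The highest were ligands that attract neutrophils. CXCL1 was at 1323, 1208 and 1266 TPM and CXCL8, the interleukin-8 gene, at 926, 1085 and 983. CXCL1 was above CXCL8 in every library by a factor of 1.28 ± 0.16. CXCL6 followed at 191, 187 and 197, CXCL3 at 134, 115 and 150, and CXCL2 at 118, 118 and 120. All 5 lie in a cluster on chromosome 4 where the platelet chemokine genes PF4 and PF4V1 were listed at 0, PPBP was at 0.280 and CXCL5 at 1.64 TPM. CXCL1 was 10.7 ± 0.54 times CXCL2, whose protein is closely related, and the authors' counting of reads that the 2 genes share is not given in the sources used here. Among ligands of other receptors, CCL20 was at 50.6 ± 1.92, CCL26 at 45.4 ± 4.47 and CCL2 at 18.3 ± 0.89 TPM, while CXCL12, CCL3, CCL4 and CCL8 were listed at 0.

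In the list of acute-phase, complement and epithelial defence genes 14 of 40 were detected (35.0%), 14 were listed at 0, and the median was 0.324 TPM. Both the share and the median were below the 63.6% and 7.32 TPM of all protein-coding genes. The list took 2.65% ± 0.19 of all TPM, of which PI3 alone made up 2.23% ± 0.18. LCN2, the gene of the iron-siderophore carrier lipocalin 2 (chr9:128149071-128153453, plus strand), was at 2879, 2678 and 2758 TPM, rank 26 (73 when weighted by transcript length). LCN2 and IL1B could not be ordered, with a ratio of 1.00 ± 0.026 and LCN2 above IL1B in 2 of 3 libraries. SLPI (801 ± 53.7) came next, then C3, the central complement component, at 281, 257 and 265 TPM, the pentraxin gene PTX3 at 86.3, 86.4 and 99.999, and the serum amyloid gene SAA1, nearly identical to SAA2, at 69.2, 80.2 and 68.5. The antimicrobial genes S100A7, S100A8, S100A12, DEFB1 and DEFB4A were listed at 0, and S100A9 was at 18.4, 25.1 and 19.5 TPM.

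The sequences upstream of genes at the high and low ends of these levels were read from the RefSeq start sites on GRCh38.p14. They are shown for LCN2, CXCL1, CXCL8 and IL1B because these rank among the 102 highest genes by mean TPM, and for KLK3 because it is listed at 0. Other genes of such rank are not shown. The matches searched on both strands in the 250 bases before the start were the 10-base NF-kB (kappaB) consensus, the AP-1 element TGANTCA and the letters TATAAA. Capitals mark a match, and only bases outside every GENCODE exon are printed, 5′ to 3′ on the gene's strand.
LCN2: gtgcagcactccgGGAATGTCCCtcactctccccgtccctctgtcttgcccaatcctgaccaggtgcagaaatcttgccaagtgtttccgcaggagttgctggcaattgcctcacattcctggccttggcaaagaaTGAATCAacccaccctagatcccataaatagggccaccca
CXCL1: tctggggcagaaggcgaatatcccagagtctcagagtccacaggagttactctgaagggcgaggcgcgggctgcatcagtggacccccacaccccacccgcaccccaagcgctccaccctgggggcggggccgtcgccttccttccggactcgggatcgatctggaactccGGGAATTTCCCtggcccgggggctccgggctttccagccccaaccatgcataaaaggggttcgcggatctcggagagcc
CXCL8: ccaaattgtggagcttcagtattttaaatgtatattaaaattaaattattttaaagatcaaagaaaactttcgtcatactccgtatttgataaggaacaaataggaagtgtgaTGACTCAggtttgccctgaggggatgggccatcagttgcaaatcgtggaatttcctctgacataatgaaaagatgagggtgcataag
IL1B: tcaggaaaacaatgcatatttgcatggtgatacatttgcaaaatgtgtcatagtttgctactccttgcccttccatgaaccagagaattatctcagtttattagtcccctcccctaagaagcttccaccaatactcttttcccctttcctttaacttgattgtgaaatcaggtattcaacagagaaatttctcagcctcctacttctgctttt
KLK3: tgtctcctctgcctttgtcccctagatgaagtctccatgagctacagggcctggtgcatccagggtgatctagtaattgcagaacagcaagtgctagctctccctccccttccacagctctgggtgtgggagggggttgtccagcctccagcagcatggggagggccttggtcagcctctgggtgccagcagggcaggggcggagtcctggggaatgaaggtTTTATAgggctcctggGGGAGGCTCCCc
The stretch of LCN2 (chr9:128149265-128149440, plus strand) held a kappaB match from 175 to 166 bases and an AP-1 match from 52 to 46 bases before the start. That of CXCL1 (chr4:73869143-73869392, plus strand) held a kappaB match on each strand, overlapping each other, between 79 and 69 bases before it. The CXCL8 stretch (chr4:73740319-73740518, plus strand) held an AP-1 match from 137 to 131 bases, and its TATAAA letters, 31 to 26 bases before the start, lie in the part not printed. CXCL8 had no kappaB match, but its stretch holds tggaatttcc, which differs from the CXCL1 match GGGAATTTCC only at its start. A site that departs from the consensus is missed by this search. No searched letters were found for IL1B (chr2:112836817-112837029, minus strand), which says nothing of other sites. The KLK3 stretch (chr19:50854665-50854914, plus strand) held overlapping kappaB matches on both strands 12 to 2 bases before the start and TATAAA on the opposite strand, although its level was 0. The window of MSMP lies in an exon of RGP1 and is not printed. It held an AP-1 match from 142 to 136 bases before the start and TATAAA on both strands between 29 and 22 bases. The AP-1 matches of LCN2 and MSMP read TGAATCA, outside the AP-1 consensus, and that of CXCL8 reads TGACTCA.

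The kappaB letters were in 9.26% of the 22114 upstream windows of genes with 1 listed start, the AP-1 letters in 6.86% and TATAAA in 11.8%. Of the cytokine, chemokine and defence genes at 10 TPM or more, 13 had such a window and 7 of these (53.8%) held the kappaB letters. The 7 were LCN2, CXCL1, CXCL6, CXCL3, CXCL2, PTX3 and CCL20, of which the CXCL genes are related copies with related sequence. Of those genes under 1 TPM, 1 of 22 (4.55%) held them. The AP-1 letters were in 3 of 13 windows (23.1%) of the first group and 3 of 22 (13.6%) of the other, and TATAAA was in 3 of 13 (23.1%) and 9 of 22 (40.9%). Protein-coding genes of 100 TPM or more held the kappaB letters in 13.2% of 1057 windows. These shares describe letters, not binding, and a near match such as that of CXCL8 is not counted.

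Of the 36 genes of NF-kB subunits, inhibitors, feedback and upstream receptors 34 were detected (94.4%, median 29.4 TPM), against 63.6% of all protein-coding genes. The highest were genes that NF-kB is known to induce and adaptors of its pathway. NFKBIA, which encodes the inhibitor IκBα, was at 395, 374 and 357 TPM, and the adhesion molecule ICAM1 at 402, 341 and 365, and these 2 were not distinguishable. The interleukin-1 receptor kinase IRAK1 was at 339, 289 and 301, the inhibitor TNIP1 at 284, 235 and 244, and NFKBIZ, a nuclear IκB protein gene, at 187, 173 and 151. Of the subunits, RELA (62.1 ± 5.94) was above NFKB2 (42.5 ± 4.44) and NFKB1 (30.3 ± 1.59), and RELB (8.12 ± 0.53) and REL (2.15 ± 0.066) were lower. The interleukin-1 receptor IL1R1, at 0.772, 0.443 and 0.472 TPM, and TRAF1, at 0.761 ± 0.26, were the 2 undetected members, while the coreceptor IL1RAP was at 10.95 ± 0.27 TPM.

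Of 31 genes of extracellular proteases and their inhibitors 23 were detected (74.2%, median 31.9 TPM) and 12 exceeded 100 TPM. The detected share of all protein-coding genes was 63.6%. The plasminogen activator genes PLAU, for urokinase, and PLAT were at 841, 837 and 863 and at 427, 377 and 369 TPM. PLAU was 10.4 ± 0.58 times its receptor gene PLAUR. TIMP1, an inhibitor of metalloproteinases, was at 896, 843 and 840 TPM and was above PLAU in 2 of 3 libraries. The membrane-bound metalloproteinase MMP14 was at 709, 606 and 584 and the lysosomal protease CTSD at 433, 372 and 386. The secreted gelatinases MMP2 (0.0522 TPM) and MMP9 (0.218 TPM), MMP3 and MMP7 were under 1 TPM, and KLK6 was listed at 0.

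Of 58 growth factor and receptor genes 44 were detected (75.9%, median 14.3 TPM), against 63.6% of all protein-coding genes. MIF, a macrophage migration inhibitory factor gene, was at 1141, 1089 and 1114 TPM, the granulin precursor GRN at 791, 658 and 701, and the stress-induced TGF-β relative GDF15 at 610, 580 and 623. The activin antagonist FST, at 347, 339 and 357, and the Wnt antagonist DKK1, at 343, 306 and 360, were not ordered in every library. Among receptors, TGFBR2 was at 147 ± 3.20, the hepatocyte growth factor receptor MET at 101 ± 1.41 with its ligand HGF at 0.137, and EGFR at 22.3 ± 1.14 TPM, while IGF1 and FGFR2 were listed at 0.

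All 34 genes of the NEDD8, SUMO and ARF machinery that the study addressed were detected (100%, median 44.7 TPM), and 32 were at 10 TPM or more. The detected share of all protein-coding genes was 63.6%. NPM1, the nucleolar protein that binds p14ARF, was at 1416, 1538 and 1550.0 TPM, replicate 1 being lowest. SUMO2 was at 347, 368 and 371, above SUMO3 (193, 180 and 192) in every library. UBE2M, the main NEDD8-conjugating enzyme gene, was at 276, 262 and 254 TPM and the other such enzyme, UBE2F, at 31.4 ± 1.78. NEDD8 was at 143 ± 8.46, and NAE1 and UBA3, the subunits of the enzyme that MLN4924 inhibits, at 95.7 ± 5.95 and 44.3 ± 1.63. Of the cullins, CUL2 (125 ± 8.04) was highest, then CUL1 (88.9 ± 1.49), and CUL9 (9.64 ± 0.52) was lowest. MDM2, the ubiquitin ligase gene whose product p14ARF binds, was at 14.3 ± 0.051 TPM.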

How the data were processed

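Total RNA of vehicle-treated PC3 cells was sequenced by BGI. In CLC Genomics Workbench 23.0.5, the authors removed adapters, aligned the reads to hg38 and quantified genes on the Ensembl annotation GRCh38.112. The deposited table gives TPM per gene symbol, every column sums to 1000000, and no depth can be recovered. Read layout and strandedness are not given in the sources used here. The paper names the RNeasy kit and the labels the GenElute kit for RNA isolation.

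The 3 Ctrl columns were used and 9 columns were not. Mean, SD and rank were computed in Python 3.11.15 with pandas 2.3.3 and numpy 2.4.6, plots with matplotlib 3.10.9, and the scripts were tested on simulated data. Gene types, positions and neighbours (6 protein-coding genes on each side) come from GENCODE 44 on GRCh38, where 28962 symbols (66.4%) had an entry, 1038 of them through an older name. The others hold 1.36% of all TPM. No test was made, since no groups are compared.

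The genes named were the 25 highest, the 15 highest protein-coding genes that are neither mitochondrial nor ribosomal, KLK3, CTNNA1, CDKN2A, RB1, IL1B and LCN2, the 5 highest of each of 16 lists with their defining members under 1 TPM, the neighbours of CTNNA1 and CDKN2A, and the 5 most variable of the 500 highest. Further members are named as examples. Some genes of this rule are not reported here and stay in the counts of their lists. The members and lists were chosen with earlier results of these data known. The neighbours of PI3 and MSMP, the promoters, the ratios and the 6 lists under the other observations were picked with their values known. The alternatives were other thresholds, scalings and means, each library left out in turn, and, chosen after seeing the data, TPM times the canonical transcript length.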

Additional observations from a re-analysis of the deposited data

How the results depend on the processing

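Without any 1 library, the number of detected genes stayed between 14302 and 14349, the share of the 100 highest genes between 31.1% and 32.5%, that of ribosomal protein genes between 7.29% and 7.73% and that of mitochondrially encoded genes between 8.90% and 10.4%. At 10 TPM the detected genes numbered 9211. Weighted by transcript length, which counts RNA bases in place of molecules, the 100 highest genes took 18.9%, ribosomal protein genes 3.32% and mitochondrially encoded genes 4.23%. On that scale PI3 ranked 6, MSMP 5, IL1B 24, HAS3 13, LCN2 73, CXCL1 149, CXCL8 123 and CDKN2A 3157. Of 48 counts of detected list members under another detection threshold, 8 moved by over 1.5 times. With a library left out, 1 of 48 such counts did, the leukocyte and erythroid list without replicate 2, with 2 detected members in place of 4. A mean over 3 libraries cannot move by its own SD when 1 is left out, so such values say nothing of the stability of mean levels and shares. Rescaling without mitochondrial and ribosomal genes raised 7 of 10 named levels by more than the SD between libraries. TPM carries no depth, so no counting error could be given, and 0.1 to 1 TPM is where libraries differed most. Genes with near-identical copies or antisense partners are as the authors counted them. No paired analysis was possible because 1 condition is described and no groups are compared.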

Other observations

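The following gene groups were chosen after their values were seen. Receptors of the abundant secreted factors were mostly undetected, with 7 of 19 at 1 TPM or more (36.8%, median 0.543 TPM). Of all protein-coding genes 63.6% were detected, with a median of 7.32 TPM. CXCR1 and CXCR2, the receptors for CXCL1 and CXCL8, CSF3R, the receptor for CSF3, CSF2RB and CCR2 were listed at 0 in every library. Receptors for LIF were present, with LIFR at 10.2, 9.51 and 9.35 TPM and its partner IL6ST at 66.9, 70.5 and 68.6 TPM. ELANE, PRTN3, CTSG and CMA1, serine protease genes of neutrophils and mast cells whose products PI3 and SLPI proteins can inhibit in part, were listed at 0. Of the genes that process interleukin-1β, CASP1 was at 1.86, 2.14 and 2.71 TPM, PYCARD, the inflammasome adaptor gene, was above 0 in replicate 1 only (0.0941 TPM), NLRP3 was at 0.440 ± 0.14, and the pore protein gene GSDMD was at 38.7, 31.5 and 35.2 TPM. IL37, which encodes a cytokine known to dampen inflammation and is the gene next to IL1B, was at 373, 347 and 383 TPM.

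HAS3, 1 of 3 hyaluronan synthase genes, was at 1699, 1517 and 1610.4 TPM, rank 54 (13 when weighted by transcript length), and 113 ± 7.20 times HAS2 at 14.3 TPM, with HAS1 listed at 0. The complement shields CD55 (485 ± 8.63 TPM), CD59 (340 ± 11.4) and CD46 (86.2 ± 1.00) were all detected. Of 16 nuclear receptor genes 12 were detected (75%), against 63.6% of all protein-coding genes. PPARG, a receptor for fatty acid ligands, was highest at 91.2, 85.5 and 87.8 TPM, the glucocorticoid receptor NR3C1 was at 11.1 ± 0.18, and the oestrogen and progesterone receptors ESR1 (0.0147) and PGR (0.00329) were near 0. Of 55 keratin genes 14 were detected, against 63.6% of all protein-coding genes. KRT75, a keratin of the hair follicle, led the keratins at 1169, 1012 and 1136 TPM, above KRT19 in every library. KRT81, a hair keratin gene, was at 138 ± 7.89 and KRT6B at 138 ± 10.96 TPM, while KRT6A was at 0.655. KRT6A and KRT6B are near-identical copies, so their split is uncertain. Of 39 HOX genes 25 were detected, against 63.6% of all protein-coding genes. HOXB13, HOXB9 (149, 120.0 and 122 TPM) and HOXA11 (56.5 ± 3.09) led them. TCN1, a vitamin B12 carrier gene, was at 1188, 1240.0 and 1239 TPM.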
